A study of Homo sapiens with 9 samples.

Results

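The 44 genes described here are interferon-stimulated genes, sensors of RNA and the factors that join them to interferon signalling. They were chosen by symbol and by what they are known to do, though with earlier results of these data known. They are 44 of the 17637 genes in the deposited table. All 44 had enough counts to be tested, among 15309 genes tested in all. KOPTK1 is an established line of T-cell acute lymphoblastic leukaemia (T-ALL). Its genotype is given as WT, and all 9 libraries come from cells that received lentivirus. The shDHX15_MYC group carried a short hairpin RNA against DHX15, a DEAH-box RNA helicase, together with an added MYC coding region. The shDHX15 group carried the hairpin without added MYC, and the shControl group carried a control hairpin, named for GFP in the table. Each group has 3 libraries of poly(A) RNA. The study asked whether MYC acts downstream of DHX15. The labels do not say whether the 3 libraries of a group came from separate cultures, so the p-values measure the spread between these libraries, which may be technical. A group that expresses MYC without the hairpin is not analysed here, nor is a second hairpin.

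Cells recognise foreign or misplaced RNA through RIG-I (DDX58) and MDA5 (IFIH1) in the cytoplasm and TLR3 in endosomes. The cytoplasmic receptors signal through MAVS on mitochondria to IRF3 and IRF7, which switch on interferon genes. Secreted interferon then binds its receptor, and a complex with STAT2 and IRF9 binds the interferon-stimulated response element (ISRE) in the promoters of the effector genes, among them the OAS, IFIT, MX and IFITM families. Many of the effectors bind, modify or degrade viral RNA, and in T cells interferon also restrains growth.

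The promoters of 7 genes on which the results turn are printed from RefSeq (GRCh38.p14), each from 250 bases before to 50 bases after the start site, 5′ to 3′ on the strand of the gene. Capitals mark the ISRE core, searched as GAAANNGAAA and, for the other strand, as TTTCNNTTTC. The first 5 genes rose most with added MYC among members with a RefSeq promoter, and the last 2 fell most. IFI44L lies at chr1:78620198-78620497 on the plus strand, MX1 at chr21:41420308-41420607 on the plus strand, OAS1 at chr12:112906712-112907011 on the plus strand and IFI27 at chr14:94110486-94110785 on the plus strand. ISG20 lies at chr15:88638766-88639065 on the plus strand, IFITM3 at chr11:320811-321110 on the minus strand and STAT2 at chr12:56360058-56360357 on the minus strand.
IFI44L: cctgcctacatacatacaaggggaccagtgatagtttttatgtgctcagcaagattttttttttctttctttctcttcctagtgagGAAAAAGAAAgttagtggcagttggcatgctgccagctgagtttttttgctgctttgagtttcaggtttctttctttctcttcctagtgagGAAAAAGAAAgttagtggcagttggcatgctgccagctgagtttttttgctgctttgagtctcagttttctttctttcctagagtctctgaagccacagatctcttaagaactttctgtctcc
MX1: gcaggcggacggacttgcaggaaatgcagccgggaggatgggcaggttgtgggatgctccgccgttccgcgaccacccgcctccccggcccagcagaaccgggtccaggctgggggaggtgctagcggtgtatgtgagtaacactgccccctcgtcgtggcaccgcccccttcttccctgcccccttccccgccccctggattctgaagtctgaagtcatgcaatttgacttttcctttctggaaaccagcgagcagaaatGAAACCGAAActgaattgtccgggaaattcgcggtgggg
OAS1: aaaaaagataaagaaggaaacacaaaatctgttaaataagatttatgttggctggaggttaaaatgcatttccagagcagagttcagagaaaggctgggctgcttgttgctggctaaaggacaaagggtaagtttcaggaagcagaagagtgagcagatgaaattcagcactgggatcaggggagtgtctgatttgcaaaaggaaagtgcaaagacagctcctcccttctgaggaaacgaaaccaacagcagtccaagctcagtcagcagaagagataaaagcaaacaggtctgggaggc
IFI27: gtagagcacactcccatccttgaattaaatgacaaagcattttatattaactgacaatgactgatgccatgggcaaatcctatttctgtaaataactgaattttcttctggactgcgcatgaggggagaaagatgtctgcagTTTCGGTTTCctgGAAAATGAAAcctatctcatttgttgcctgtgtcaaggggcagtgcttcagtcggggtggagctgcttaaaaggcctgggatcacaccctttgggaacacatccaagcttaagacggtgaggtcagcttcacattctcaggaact
ISG20: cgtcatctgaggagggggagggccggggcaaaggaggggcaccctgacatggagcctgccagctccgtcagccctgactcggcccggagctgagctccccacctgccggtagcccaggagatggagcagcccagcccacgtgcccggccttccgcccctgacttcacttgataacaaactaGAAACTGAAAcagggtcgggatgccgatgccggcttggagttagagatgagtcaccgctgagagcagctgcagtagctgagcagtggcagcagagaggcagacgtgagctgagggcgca
IFITM3: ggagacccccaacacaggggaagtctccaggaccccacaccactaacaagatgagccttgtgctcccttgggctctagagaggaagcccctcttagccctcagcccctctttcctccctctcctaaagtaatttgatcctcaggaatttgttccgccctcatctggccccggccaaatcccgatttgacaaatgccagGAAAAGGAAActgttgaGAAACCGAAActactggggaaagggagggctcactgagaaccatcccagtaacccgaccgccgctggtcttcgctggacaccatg
STAT2: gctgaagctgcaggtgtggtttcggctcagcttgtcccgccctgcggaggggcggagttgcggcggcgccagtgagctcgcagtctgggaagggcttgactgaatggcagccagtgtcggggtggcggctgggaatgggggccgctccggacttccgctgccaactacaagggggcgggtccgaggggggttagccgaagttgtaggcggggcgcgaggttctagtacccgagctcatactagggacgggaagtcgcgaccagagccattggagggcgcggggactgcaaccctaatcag
The windows of IFI44L, IFI27 and IFITM3 hold 2 matches each, those of MX1 and ISG20 hold 1, and those of OAS1 and STAT2 hold none.

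DHX15 averaged 195 ± 2.55 CPM in shDHX15_MYC and 167 ± 13.8 CPM in shDHX15, against 280.3 ± 3.43 CPM in shControl (SD, n = 3 each). CPM are counts scaled with TMM factors to a common library size. DHX15 was called higher in shDHX15_MYC than in shDHX15 (log2 0.23, adjusted p = 0.000124, edgeR quasi-likelihood test). The comparison named here for added MYC thus also differs in DHX15, and these differences cannot be told apart. MYC averaged 7096 ± 153 CPM in shDHX15_MYC and 86.9 ± 3.78 CPM in shDHX15, against 109 ± 0.603 CPM in shControl. The libraries held 42134302 to 43371973 counts in shDHX15_MYC, 48644528 to 59688062 in shDHX15 and 45672922 to 50726272 in shControl, and the floor of 3 counts that a gene without any count could still have is 0.0519 to 0.0708 CPM per library, counting error only. Replicate 1 of shDHX15 stood apart from the other 2 libraries of its group. Its chi-square per degree of freedom against them was 17.3 and 16.4, while every other pair within a group lay between 2.71 and 4.36. Defining markers of T-ALL cells were present in all libraries, with none of the 13 at 0, but their summed level was 1927 to 1963 CPM in shDHX15_MYC and 3098 to 3268 CPM in shDHX15, against 3999 to 4109 CPM in shControl. With added MYC 12 of the 13 were lower and 1 was not called, against 42.6% of all genes lower. A fall of at least 2-fold was seen in 5, against 14.7% of all genes. DNTT fell most (log2 -4.77), to 1.83 ± 0.372 CPM in shDHX15_MYC from 50.01 ± 1.21 CPM in shDHX15, against 97.99 ± 2.37 CPM in shControl. PTCRA, CD1E and CD1B changed by -3.59, -3.58 and -3.25. Markers of other cell types moved with added MYC: the sum over 6 natural killer cell markers was 108 to 113 CPM in shDHX15_MYC and 36.9 to 40.4 CPM in shDHX15, against 32.6 to 37.5 CPM in shControl. The sum over 6 plasmacytoid dendritic cell markers was 29.4 to 32.7 CPM in shDHX15_MYC and 13.1 to 14.1 CPM in shDHX15, against 13.5 to 14.04 CPM in shControl. That over 5 B-cell markers was 105 to 109 CPM in shDHX15_MYC and 46.5 to 48.9 CPM in shDHX15, against 51.05 to 53.1 CPM in shControl. CD79A carried most of that sum, at 99.8 ± 2.42 CPM in shDHX15_MYC and 37.4 ± 1.09 CPM in shDHX15, against 40.2 ± 0.544 CPM in shControl, while CD79B fell with added MYC (log2 -0.73, adjusted p = 1.26e-06). NKG7 carried most of the natural killer sum, at 98.99 ± 3.41 CPM in shDHX15_MYC and 35.3 ± 1.997 CPM in shDHX15, against 31.996 ± 2.39 CPM in shControl. The sum over 6 myeloid markers was 19.4 to 22.9 CPM in shDHX15_MYC and 12.3 to 12.9 CPM in shDHX15, against 12.8 to 13.8 CPM in shControl. LILRA4, which defines plasmacytoid dendritic cells, was at or below the limit of 3 counts in every library, and so was CSF1R, a receptor of macrophages, in all 3 shDHX15 libraries, where it had no count. CSF1R averaged 1.10 ± 0.149 CPM in shDHX15_MYC, against 0.127 ± 0.18 CPM in shControl. With added MYC 4 of 5 myeloid markers tested and 4 of 5 plasmacytoid dendritic cell markers tested were higher, against 42.1% of all genes. Their median log2 fold changes were 3.37 and 2.85. The markers not called were CD68, at 13.3 ± 0.982 CPM in shDHX15_MYC and 11.9 ± 0.363 CPM in shDHX15, and IL3RA. The sum over 7 markers of adherent cells was 36.7 to 37.3 CPM in shDHX15_MYC and 14.4 to 15.2 CPM in shDHX15, against 20.003 to 21.05 CPM in shControl. The part of these shifts in the results on interferon genes was not tested. In bulk RNA, fewer cells of a type and less RNA per cell cannot be told apart.

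With added MYC, more of the 44 genes rose than fell, while of 48 other interferon-stimulated genes tested 22 rose and 25 fell. Of the 44 genes, 28 were higher and 11 lower in shDHX15_MYC than in shDHX15, against 42.1% and 42.6% of all genes tested (edgeR quasi-likelihood test, Benjamini-Hochberg adjusted p under 0.05). Among the 11346 genes with a mean at or above that of the lowest of the 44, 34.9% were higher and 52.4% lower. The median log2 fold change was 0.51 over the 44 genes and 0.01 over all genes. A change of at least 2-fold was seen in 13 genes upward and 3 downward, against 21.7% and 14.7% of all genes. The shDHX15_MYC and shDHX15 values did not overlap for 40 of the 44, against 85.0% of all genes. The OAS, IFIT and IFI genes, IFIH1, IRF7 and IRF9 were among those that rose. DHX58, MAVS, STAT2, IRF1, IRF3, IFITM1, IFITM3, TRIM22 and TRIM25 were among those that fell. The summed level of the 44 genes was 3437 to 3484 CPM in shDHX15_MYC and 3029 to 3069 CPM in shDHX15. Scaling by total counts, which moves the median of all genes by 0.20, gave 32 higher and 9 lower, against 50.2% and 34.9% of all genes. Without replicate 1 of shDHX15 the counts were also 28 and 11, against 41.9% and 42.7% of all genes.

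With the knockdown alone, fewer of the genes changed. Of the 44, 8 were higher and 14 lower in shDHX15 than in shControl, against 22.0% and 23.0% of all genes, with a median log2 fold change of 0.01, against 0 over all genes. None reached a 2-fold change, against 0.849% of all genes upward and 2.16% downward, the extremes being OAS2 at -0.80 and IFIT1 at 0.37. The shDHX15 and shControl values did not overlap for 23 genes, against 51.1% of all genes. Without replicate 1 of shDHX15 the counts were 9 higher and 14 lower, against 24.6% and 24.2% of all genes. Without replicate 3 of shControl they were 5 higher and 13 lower, against 18.8% and 19.6%. Scaling by total counts, which moves the median of all genes by 0.07, gave 12 higher and 12 lower in place of 8 and 14. The shares of all genes were then 29.9% and 16.8%. Against shControl, the shDHX15_MYC libraries had 25 of the 44 genes higher and 13 lower, against 42.0% and 42.5% of all genes. The median was 0.28, against 0.02 over all genes. Total-count scaling, which moves the median of all genes by 0.27, gave 30 higher and 10 lower, with a median of 0.55. The shares of all genes were then 53.1% and 32%. With TMM scaling 39 genes did not overlap, against 87.2%. At least 2-fold higher were 15 genes and at least 2-fold lower 2, against 21.3% and 14.5%. The comparisons share libraries, so their values for a gene are given side by side and were not correlated.

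**Figure D1:**
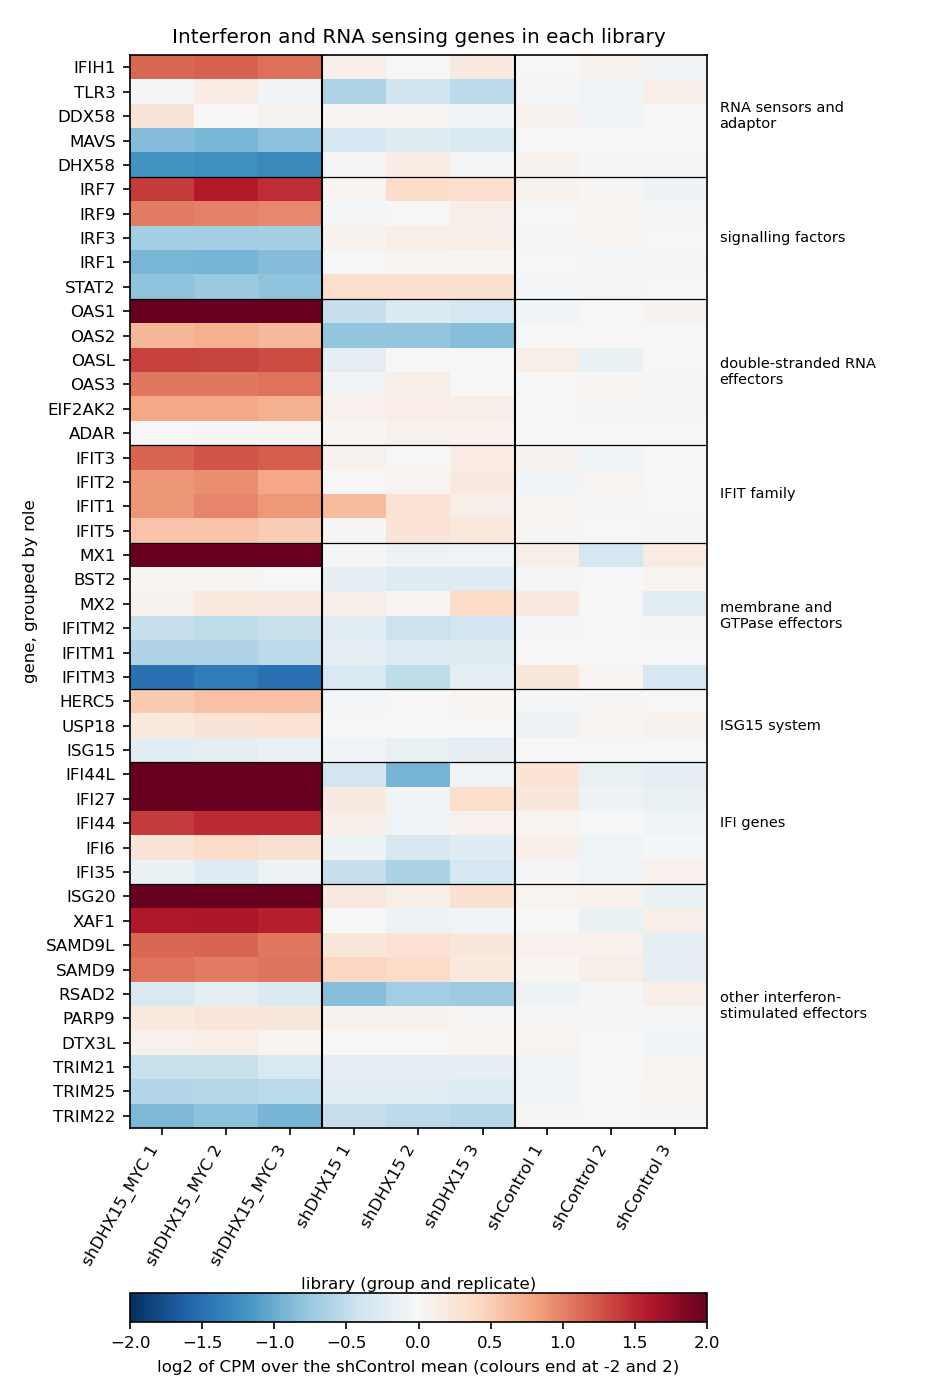
Level of each of the 44 genes (vertical axis, grouped by role) in each of the 9 libraries (horizontal axis), coloured by log2 of CPM over the mean of the 3 shControl libraries, with colours ending at -2 and 2. The 3 shDHX15_MYC libraries show red for most OAS, IFIT, IFI and MX1 values and blue for MAVS, DHX58, IRF1, IRF3, STAT2 and the IFITM genes, while the shDHX15 libraries are pale except for genes such as OAS2 and RSAD2.

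Among the RNA sensors, IFIH1 rose and DHX58 fell with added MYC while DDX58 did not pass the test under TMM scaling over all genes tested. IFIH1 encodes MDA5, which recognises long double-stranded RNA. It had 32.4, 33.4 and 31.6 CPM in shDHX15_MYC and 15.8, 14.5 and 16.6 CPM in shDHX15, against 14.6, 15.5 and 13.9 CPM in shControl. All shDHX15_MYC libraries lay above the other 6, which overlapped each other. The log2 fold change was 1.06 (SE 0.0651, adjusted p = 5.9e-11) against shDHX15, and 0.09 (SE 0.0683, adjusted p = 0.303) for shDHX15 against shControl. DDX58 encodes RIG-I, the receptor for RNA ends that bear a triphosphate. It had 38.1, 31.7 and 33.7 CPM in shDHX15_MYC and 32.9, 32.8 and 30.8 CPM in shDHX15, against 33.5, 30.4 and 31.9 CPM in shControl, and the groups overlapped throughout. The interval of its log2 fold change was -0.04 to 0.24 for shDHX15_MYC against shDHX15 and -0.13 to 0.15 for shDHX15 against shControl (95%), with adjusted p of 0.152 and 0.913. The call with added MYC depended on the settings: it became a rise of 0.30 (adjusted p = 0.000393) under total-count scaling, 0.24 (adjusted p = 0.00328) with a stricter filter on low counts and 0.16 (adjusted p = 0.0448) without replicate 2 of shDHX15_MYC.

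DHX58 encodes LGP2, a relative of both receptors that lacks their signalling domains. It had 24.9, 24.4 and 23.3 CPM in shDHX15_MYC and 58.2, 62.9 and 55.4 CPM in shDHX15, against 59.8, 55.3 and 55.8 CPM in shControl. The shDHX15_MYC values lay below all others, a 2.43-fold lower level than in shDHX15 (log2 -1.28, SE 0.0551, adjusted p = 3.72e-13), the lowest fold change among the 44. MAVS, the mitochondrial adaptor, had 145, 141 and 150.3 CPM in shDHX15_MYC and 208, 223 and 216 CPM in shDHX15, against 265, 264 and 264 CPM in shControl. The 3 groups did not overlap. MAVS fell with the knockdown (log2 -0.29, SE 0.0337, adjusted p = 2.26e-06) and again with added MYC (log2 -0.57, SE 0.0341, adjusted p = 3.94e-11), to a level 1.82-fold below shControl. TLR3, the endosomal receptor for double-stranded RNA, had 7.17, 8.07 and 7.02 CPM in shDHX15_MYC and 4.76, 5.52 and 5.07 CPM in shDHX15, against 7.11, 6.84 and 7.85 CPM in shControl. It was lowest in all 3 shDHX15 libraries, while shDHX15_MYC and shControl overlapped: log2 -0.50 (SE 0.105, adjusted p = 0.000828) for shDHX15 against shControl and 0.53 (SE 0.104, adjusted p = 0.000141) for shDHX15_MYC against shDHX15. Of the 5 sensor and adaptor genes, 2 rose, 2 fell and 1 did not pass with added MYC, and 2 fell and 3 did not pass with the knockdown. Of all genes, 42.1% rose and 42.6% fell with added MYC, and 23.0% fell with the knockdown.

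The 5 signalling factors moved in opposite directions with added MYC, 2 rising and 3 falling, against 42.1% and 42.6% of all genes. IRF7, the main switch of interferon alpha genes, had 33.1, 37.4 and 34.7 CPM in shDHX15_MYC and 12.98, 16.1 and 15.8 CPM in shDHX15, against 13.1, 12.7 and 11.7 CPM in shControl. It was 2.35-fold higher than in shDHX15 (log2 1.23, SE 0.0793, adjusted p = 1.1e-10), with no overlap. Its change with the knockdown was 0.26 (SE 0.0846, adjusted p = 0.0191), where replicate 1 of shDHX15 fell inside the shControl range, and the adjusted p was 0.0999 without replicate 2 of shDHX15 and 0.0626 without its replicate 3. IRF9, the DNA-binding subunit of the complex that binds the ISRE, had 45.6, 45.3 and 43.9 CPM in shDHX15_MYC and 22.1, 22.6 and 24.5 CPM in shDHX15, against 22.5, 23.1 and 21.8 CPM in shControl. The rise was 1.95-fold over shDHX15 (log2 0.96, SE 0.0537, adjusted p = 1.44e-11), and shDHX15 and shControl overlapped. Of the 3794 exon bases of IRF9, 1838 overlap another protein-coding gene on the same strand, so part of its counts could belong to that gene.

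STAT2, the partner of IRF9 that carries the activating domain, went the other way. It had 75.4, 78.9 and 75.3 CPM in shDHX15_MYC and 169, 164 and 162 CPM in shDHX15, against 129, 133 and 133 CPM in shControl. The 3 groups were separate, with shDHX15 the highest: log2 0.32 (SE 0.0338, adjusted p = 8.1e-07) with the knockdown and -1.11 (SE 0.0346, adjusted p = 4.85e-15) with added MYC, which left it 1.72-fold below shControl. IRF3, which answers MAVS directly, had 72.1, 71.7 and 73.4 CPM in shDHX15_MYC and 122, 127 and 126 CPM in shDHX15, against 112, 119.6 and 116 CPM in shControl. Its fall with added MYC was 1.73-fold (log2 -0.79, SE 0.0357, adjusted p = 7.5e-13). The small rise with the knockdown (log2 0.11, SE 0.0351, adjusted p = 0.0156) did not pass without replicate 2 of shDHX15 (adjusted p = 0.0606) or without replicate 1 of shControl (adjusted p = 0.0888). IRF1, induced mainly by interferon gamma, had 127, 125 and 130.3 CPM in shDHX15_MYC and 241, 249 and 244 CPM in shDHX15, against 239.9, 234 and 242 CPM in shControl. Only the shDHX15_MYC libraries stood apart, with a 1.92-fold lower level than in shDHX15 (log2 -0.94, SE 0.0309, adjusted p = 9.47e-15). Exons of IRF1 and IRF3 overlap genes on the opposite strand by 2185 and 734 bases, and the strand setting of the counting is not given, so part of their counts could belong to those genes.

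Of the 6 genes grouped as double-stranded RNA effectors, 5 rose with added MYC, against 42.1% of all genes. The oligoadenylate synthetases, whose product activates RNase L, led the rise. OAS1 had 74.3, 80.3 and 76.98 CPM in shDHX15_MYC and 11.4, 12.8 and 12.3 CPM in shDHX15, against 14.9, 15.4 and 16.3 CPM in shControl. The groups did not overlap: OAS1 fell with the knockdown (log2 -0.35, SE 0.0637, adjusted p = 0.000237) and was 6.34-fold higher in shDHX15_MYC than in shDHX15 (log2 2.66, SE 0.0592, adjusted p = 5.91e-17). OAS2 had 134, 138 and 133 CPM in shDHX15_MYC and 49.4, 49.4 and 46.96 CPM in shDHX15, against 84.5, 84.8 and 84.6 CPM in shControl. It had the lowest fold change of the 44 with the knockdown, 1.74-fold below shControl (log2 -0.80, SE 0.037, adjusted p = 7.89e-11), and with added MYC it stood 2.78-fold above shDHX15 (log2 1.47, SE 0.0367, adjusted p = 2.49e-16) and 1.59-fold above shControl. OAS3 had 390.5, 388 and 397 CPM in shDHX15_MYC and 178, 203 and 186 CPM in shDHX15, against 186, 193 and 183 CPM in shControl. Thus the neighbours OAS1, OAS3 and OAS2, which lie in that order on chromosome 12 with 5129 and 5145 bases between them, all rose with added MYC, while OAS1 and OAS2 fell with the knockdown and OAS3 did not pass (log2 0.01, adjusted p = 0.805). OASL, a family member that lacks synthetase activity, averaged 24.2 ± 0.573 CPM in shDHX15_MYC and 9.21 ± 0.645 CPM in shDHX15, against 9.56 ± 0.782 CPM in shControl, and rose 2.62-fold over shDHX15 (adjusted p = 1.47e-11).

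EIF2AK2 encodes PKR, the kinase that halts translation when it binds double-stranded RNA. It had 173, 173 and 165 CPM in shDHX15_MYC and 108, 111 and 109.9 CPM in shDHX15, against 102, 103 and 99.5 CPM in shControl. It rose at each step, by 0.12 (SE 0.0336, adjusted p = 0.00925) with the knockdown and by 0.64 (SE 0.0331, adjusted p = 5.37e-12) with added MYC on the log2 scale. ADAR, which edits double-stranded RNA and thereby keeps MDA5 from sensing the cell's own transcripts, had 529.8, 537 and 543 CPM in shDHX15_MYC and 536, 557 and 552 CPM in shDHX15, against 526, 530.05 and 521 CPM in shControl. Its log2 fold change with added MYC was -0.03 (95% interval -0.09 to 0.03, adjusted p = 0.298), and 0.17 (adjusted p = 1.52e-05) under total-count scaling and 0.10 (adjusted p = 0.0017) with the stricter filter. Without replicate 1 of shDHX15 it was -0.06 (adjusted p = 0.0166). With the knockdown it was 0.06 (95% interval 0 to 0.12, adjusted p = 0.0805), although the groups did not overlap, and 0.08 (adjusted p = 0.00256) without replicate 1 of shDHX15. It also passed by DESeq2 (0.06, adjusted p = 0.0404), in the fit of 2 groups only (0.08, adjusted p = 0.0484) and under total-count scaling (0.13, adjusted p = 0.000837).

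The IFIT family encodes proteins that bind foreign RNA ends and block its translation. With added MYC 4 of 4 members rose, against 42.1% of all genes. IFIT3, the cofactor of IFIT1, had 36.7, 39.4 and 38.2 CPM in shDHX15_MYC and 17.3, 16.6 and 18.5 CPM in shDHX15, against 17.3, 15.6 and 16.5 CPM in shControl, a 2.19-fold rise over shDHX15 (log2 1.13, SE 0.0617, adjusted p = 1.09e-11). IFIT2 rose 1.71-fold (adjusted p = 3.82e-09) and IFIT5 1.30-fold (adjusted p = 6.79e-05), both without overlap. IFIT1, which recognises caps that lack methylation, had 10.5, 11.3 and 10.4 CPM in shDHX15_MYC and 8.92, 7.04 and 6.21 CPM in shDHX15, against 5.89, 5.59 and 5.71 CPM in shControl. Replicate 1 of shDHX15 was the highest of its group. The change with the knockdown was 0.37 (SE 0.118, adjusted p = 0.0178), and 0.21 (adjusted p = 0.108) without that replicate. With added MYC the change was 0.54 (SE 0.111, adjusted p = 0.000231), and 0.69 (adjusted p = 1.57e-07) without it.

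MX1 and MX2, neighbours on chromosome 21 with 10913 bases between them, encode GTPases that trap viral particles. MX1 had 42.1, 43.6 and 44.5 CPM in shDHX15_MYC and 5.26, 4.95 and 5.02 CPM in shDHX15, against 5.80, 4.18 and 5.99 CPM in shControl. It was 8.55-fold higher in shDHX15_MYC than in shDHX15 (log2 3.10, SE 0.0945, adjusted p = 3.47e-15), while shDHX15 lay inside the shControl range. MX2 had 4.18, 4.57 and 4.52 CPM in shDHX15_MYC and 4.35, 4.13 and 5.21 CPM in shDHX15, against 4.54, 4.01 and 3.43 CPM in shControl. Its groups overlapped, and the 95% interval of its log2 fold change with added MYC was -0.32 to 0.24 (adjusted p = 0.773), which does not reach that of MX1, 2.90 to 3.30.

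The IFITM genes encode membrane proteins that hinder viral entry, and IFITM1 and IFITM3 were lower in shDHX15_MYC than in shDHX15. The change of IFITM2, -0.13 (adjusted p = 0.0227), was 0.07 (adjusted p = 0.243) under total-count scaling and 0 (adjusted p = 0.973) with the stricter filter. It also missed the threshold under RLE scaling (adjusted p = 0.0948), by DESeq2 (0.12), in the fit of 2 groups only (0.0621) and without replicate 1 of shDHX15 (0.0963) or replicate 2 of shDHX15_MYC (0.0768). IFITM3 had 2.004, 2.15 and 2.01 CPM in shDHX15_MYC and 4.60, 3.995 and 4.96 CPM in shDHX15, against 6.60, 5.90 and 4.46 CPM in shControl. The shDHX15_MYC values lay below all others (log2 -1.13 against shDHX15, SE 0.159, adjusted p = 3.86e-06), and the other groups overlapped. Its change with the knockdown was -0.33 (adjusted p = 0.0785), and -0.47 (adjusted p = 0.0134) without replicate 3 of shControl. IFITM1 had 114, 115 and 122 CPM in shDHX15_MYC and 154, 145 and 148 CPM in shDHX15, against 174, 173 and 175 CPM in shControl. It fell with the knockdown (log2 -0.23, adjusted p = 4.86e-05) and with added MYC (log2 -0.35, adjusted p = 5.03e-08). IFITM2 had 61.4, 59.5 and 62.2 CPM in shDHX15_MYC and 73.5, 62.9 and 64.6 CPM in shDHX15, against 82.6, 85.2 and 86.3 CPM in shControl, a change of -0.34 on the log2 scale with the knockdown (SE 0.0506, adjusted p = 3.82e-05). IFITM1 and IFITM3 share 0.0682 and 0.0435 of their 100-base windows with another locus, and IFITM1 and IFITM2 share exon bases on the same strand, so counts may have been split between them. BST2, which tethers budding virus, fell with the knockdown (log2 -0.22, adjusted p = 0.000377) and rose with added MYC (log2 0.25, adjusted p = 3.19e-05), to 66.9 to 68.02 CPM, within the shControl range of 64.3 to 68.6 CPM.

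**Figure D2:**
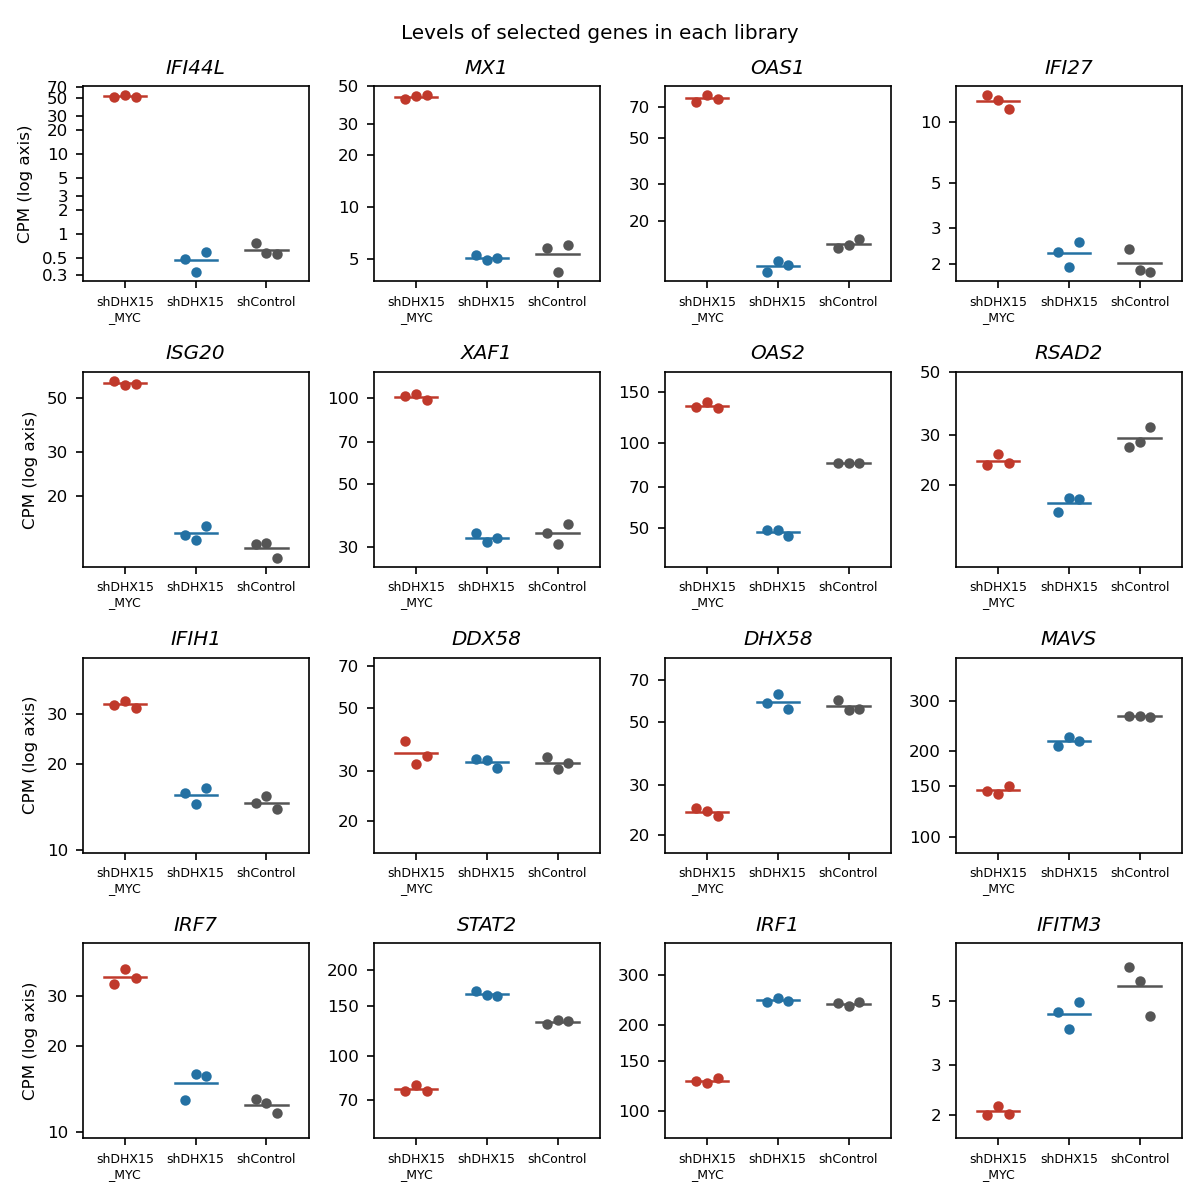
CPM of 16 genes in each library on log axes, with groups on the horizontal axis, points for the 3 libraries and a bar for their mean. IFI44L, MX1, OAS1, IFI27, ISG20 and XAF1 are highest in the 3 shDHX15_MYC libraries, OAS2, RSAD2 and MAVS differ between all 3 groups, and DDX58 overlaps throughout.

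The IFI genes rose with added MYC in 5 of 5 members, against 42.1% of all genes, and IFI44L had the highest fold change of all 44. IFI44L, an interferon-induced gene of little-known function, had 51.4, 55.4 and 52.6 CPM in shDHX15_MYC and 0.478, 0.329 and 0.594 CPM in shDHX15, against 0.756, 0.566 and 0.554 CPM in shControl. All 3 shDHX15_MYC libraries stood above the other 6, which overlapped and lay below 1 CPM. The fold was 115 over shDHX15 (log2 6.85, SE 0.119, adjusted p = 2.84e-18) and 84.5 over shControl (log2 6.40, SE 0.116, adjusted p = 4.8e-18). For shDHX15 against shControl the change was -0.45 (SE 0.231, adjusted p = 0.129), and -0.65 (adjusted p = 0.0493) without replicate 3 of shDHX15. IFI44, its neighbour 3650 bases away on chromosome 1, had 42.3, 45.4 and 45.4 CPM in shDHX15_MYC and 17.4, 15.4 and 17.1 CPM in shDHX15, against 16.7, 16.1 and 15.5 CPM in shControl, a 2.67-fold rise over shDHX15 (adjusted p = 4.34e-13). Both neighbours rose with added MYC, and neither passed the test with the knockdown.

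IFI27, whose protein sits in mitochondrial and nuclear membranes, had 13.5, 12.7 and 11.5 CPM in shDHX15_MYC and 2.31, 1.95 and 2.59 CPM in shDHX15, against 2.38, 1.89 and 1.83 CPM in shControl. The fold over shDHX15 was 5.53 (log2 2.47, SE 0.129, adjusted p = 5.84e-12), and the other 6 libraries overlapped. IFI6, a related membrane protein, averaged 73.5 ± 3.26 CPM in shDHX15_MYC and 50.4 ± 3.86 CPM in shDHX15, against 58.8 ± 4.08 CPM in shControl, lower with the knockdown (log2 -0.22, adjusted p = 0.00553) and higher with added MYC (log2 0.54, adjusted p = 1.24e-07). IFI35 had 16.9, 15.5 and 17.3 CPM in shDHX15_MYC and 13.4, 11.9 and 14.5 CPM in shDHX15, against 18.1, 17.7 and 19.7 CPM in shControl. It fell with the knockdown (log2 -0.48, SE 0.0806, adjusted p = 0.00012) and rose with added MYC (log2 0.32, SE 0.0808, adjusted p = 0.00144). Against shControl the shDHX15_MYC libraries were at -0.16 (adjusted p = 0.0713), with ranges that did not overlap, and at -0.15 (adjusted p = 0.0363) in the fit of these 2 groups only.

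ISG15, a ubiquitin-like protein that is attached to other proteins, did not pass the test with added MYC. It had 59.8, 60.2 and 63.2 CPM in shDHX15_MYC and 66.9, 62.5 and 61.5 CPM in shDHX15, against 68.9, 69.4 and 69.5 CPM in shControl. The log2 change with added MYC was -0.06 (SE 0.0423, adjusted p = 0.196) and turned to 0.14 (adjusted p = 0.00561) under total-count scaling. The fall with the knockdown (log2 -0.12, adjusted p = 0.0255) had adjusted p between 0.0581 and 0.104 when any of 5 libraries was left out. HERC5, the ligase that attaches ISG15, had 94.3, 98.3 and 98.1 CPM in shDHX15_MYC and 64.3, 65.4 and 67.2 CPM in shDHX15, against 63.9, 66.5 and 66.2 CPM in shControl, a 1.48-fold rise over shDHX15 (adjusted p = 1.78e-10). USP18, which removes ISG15 and dampens the interferon receptor, rose 1.18-fold (adjusted p = 0.000401). Of its 100-base windows 0.146 are shared with another locus.

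Of the 10 other effectors, 6 rose and 3 fell with added MYC, against 42.1% and 42.6% of all genes. ISG20, a nuclease that degrades single-stranded RNA, had 58.6, 56.004 and 56.8 CPM in shDHX15_MYC and 13.9, 13.2 and 15.1 CPM in shDHX15, against 12.7, 12.8 and 11.2 CPM in shControl. The 4.07-fold rise (log2 2.03, SE 0.0642, adjusted p = 5.82e-15) followed a small rise with the knockdown (log2 0.20, adjusted p = 0.028) whose adjusted p was 0.123 without replicate 3 of shDHX15 and 0.155 without replicate 3 of shControl. XAF1, which opposes an inhibitor of apoptosis, had 101, 103 and 98.5 CPM in shDHX15_MYC and 33.6, 31.2 and 32.1 CPM in shDHX15, against 33.5, 30.6 and 36.2 CPM in shControl. It rose 3.12-fold over shDHX15 (log2 1.64, SE 0.0536, adjusted p = 8.6e-15), but its exons overlap a gene on the opposite strand by 2535 bases. RSAD2 encodes viperin, which makes a nucleotide that ends viral RNA chains. It had 23.6, 25.7 and 23.9 CPM in shDHX15_MYC and 16.1, 17.97 and 17.8 CPM in shDHX15, against 27.3, 28.3 and 32.1 CPM in shControl. The 3 groups were separate: RSAD2 fell 1.69-fold with the knockdown (log2 -0.76, SE 0.071, adjusted p = 2.43e-07) and rose 1.41-fold with added MYC (log2 0.49, SE 0.0714, adjusted p = 5.1e-06).

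SAMD9 and SAMD9L, neighbours on chromosome 7 that restrain growth and viral translation, rose at both steps. SAMD9 had 63.8, 61.6 and 63.6 CPM in shDHX15_MYC and 40.1, 39.4 and 34.6 CPM in shDHX15, against 30.97, 32.8 and 26.7 CPM in shControl (log2 0.34 with the knockdown, adjusted p = 0.000725, and 0.73 with added MYC, adjusted p = 1.44e-08). SAMD9L had 38.2, 38.6 and 35.995 CPM in shDHX15_MYC and 20.3, 21.01 and 20.2 CPM in shDHX15, against 18.4, 18.3 and 15.1 CPM in shControl. Its rise with the knockdown, 0.25 on the log2 scale (adjusted p = 0.00964), was 0.16 (adjusted p = 0.067) without replicate 3 of shControl, the lowest library. PARP9 and DTX3L, partners that add ADP-ribose and ubiquitin and overlap head to head on opposite strands, moved by 0.17 (adjusted p = 0.000477) and 0.08 (adjusted p = 0.0571) with added MYC. DTX3L passed the threshold by DESeq2 (0.12, adjusted p = 0.00678), under RLE scaling (0.12, adjusted p = 0.00804), in the fit of 2 groups only (0.09, adjusted p = 0.0454), with the stricter filter (0.22, adjusted p = 6.13e-05) and under total-count scaling (0.28, adjusted p = 3.69e-06).

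Of the TRIM ubiquitin ligases among the members, TRIM22 and TRIM25 fell at both steps, and the falls of TRIM21 depended on the settings. TRIM22, which restricts retroviral transcription, had 116, 123 and 114 CPM in shDHX15_MYC and 158, 152 and 147 CPM in shDHX15, against 221, 218 and 215 CPM in shControl. The 3 groups were separate (log2 -0.52 with the knockdown, SE 0.0359, adjusted p = 8.31e-09, and -0.37 with added MYC, SE 0.0364, adjusted p = 3.38e-08). TRIM25, the ligase that modifies RIG-I, had 143, 145 and 148 CPM in shDHX15_MYC and 187, 185 and 181 CPM in shDHX15, against 209, 217 and 222 CPM in shControl, likewise falling with the knockdown (log2 -0.23, adjusted p = 1.85e-05) and with added MYC (log2 -0.34, adjusted p = 2.28e-08). TRIM21, a receptor for antibody inside cells, changed by -0.18 (adjusted p = 0.0279) and -0.22 (adjusted p = 0.00378), and by -0.11 (adjusted p = 0.154) and -0.02 (adjusted p = 0.746) under total-count scaling. With the stricter filter its change with added MYC was -0.09 (adjusted p = 0.206). Its change with the knockdown had adjusted p of 0.0535 without replicate 2 of shDHX15, 0.0761 without replicate 2 of shControl and 0.12 without replicate 3 of shControl.

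**Figure D3:**
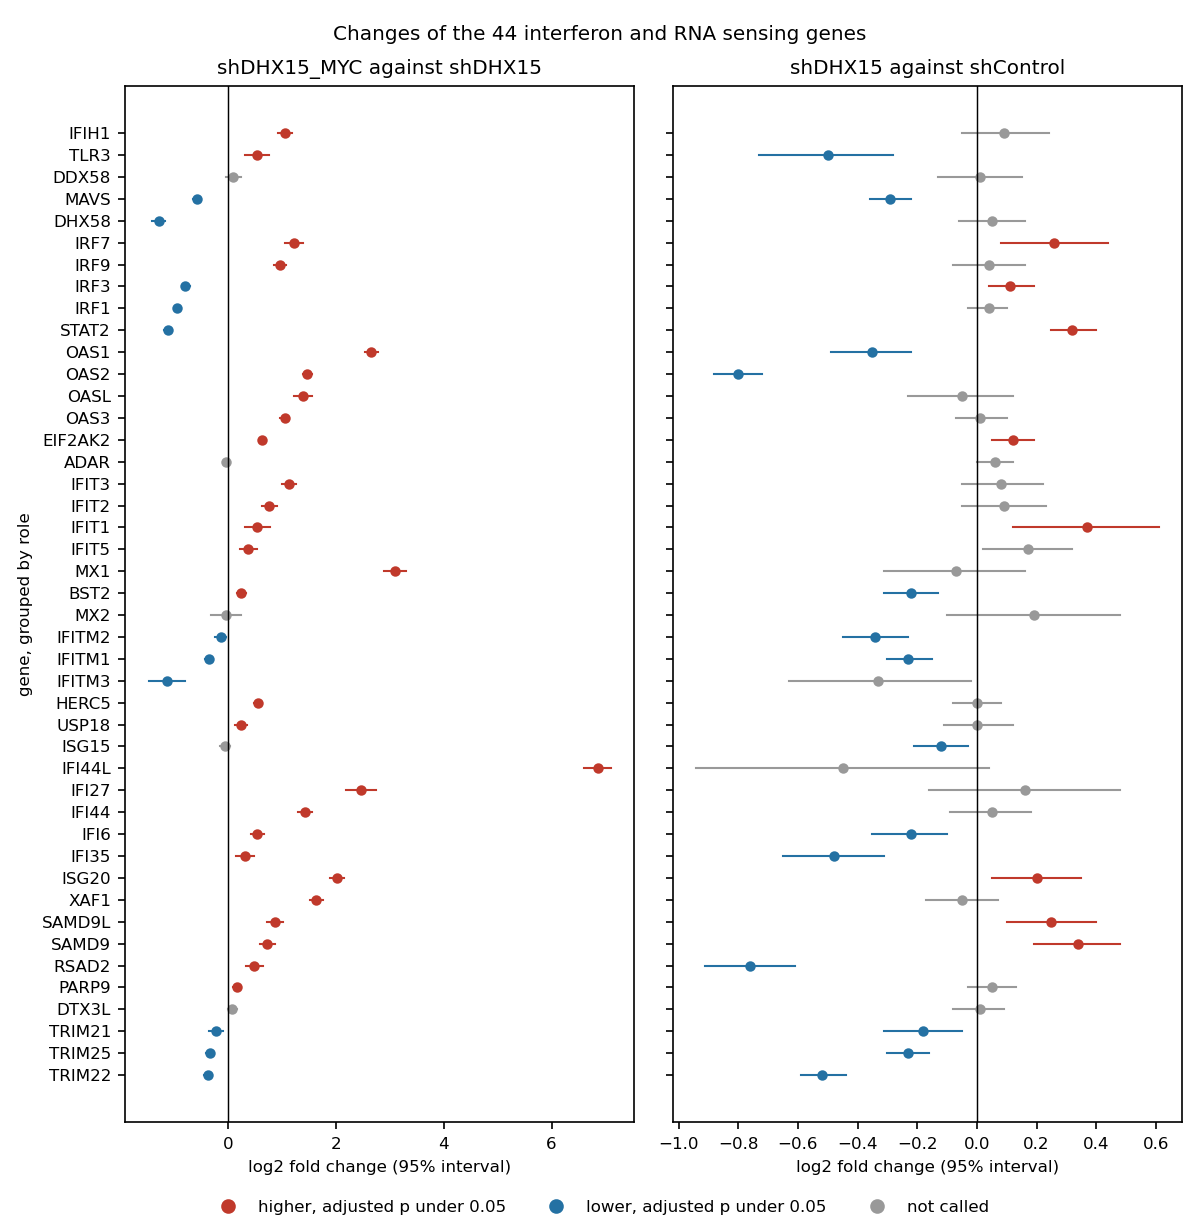
Log2 fold change of each gene with its 95% interval, for shDHX15_MYC against shDHX15 (left) and shDHX15 against shControl (right, on a narrower axis). Red marks genes called higher, blue lower and grey not called: 28 are red and 11 blue on the left, 8 red and 14 blue on the right.

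Read gene by gene over the 3 comparisons, by the calls with TMM scaling over all 15309 genes, the 44 genes fell into several patterns. The share of all genes in each pattern was not computed, so the counts do not set the 44 genes apart. The most frequent pattern, with 15 genes, was no call with the knockdown and a rise with added MYC to above shControl. It held IFIH1, IRF9, OAS3, OASL, MX1, IFI44L, IFI44, IFI27, XAF1 and 3 of the 4 IFIT genes. Another 6 genes (IRF7, EIF2AK2, IFIT1, ISG20, SAMD9 and SAMD9L) were higher in all 3 comparisons, and 6 (MAVS, IFITM1, IFITM2, TRIM21, TRIM22 and TRIM25) were lower in all 3. OAS1, OAS2 and IFI6 fell with the knockdown and rose with added MYC to above shControl. TLR3, BST2 and IFI35 fell with the knockdown, rose with added MYC and were not called against shControl. Under total-count scaling TLR3 and BST2 were above shControl, both by 0.29 (adjusted p = 0.013 and 4.94e-06), and BST2 by 0.15 (adjusted p = 0.00228) with the stricter filter. RSAD2 fell and rose likewise but remained below shControl (log2 -0.26, adjusted p = 0.00225), which became 0 under total-count scaling. STAT2 and IRF3 rose with the knockdown and fell with added MYC to below shControl. DHX58, IRF1 and IFITM3 were not called with the knockdown and fell with added MYC to below shControl. ISG15 was called lower with the knockdown and against shControl, and DTX3L was called only against shControl, as higher. Against shControl ISG15 was not called with the stricter filter (-0.05, adjusted p = 0.236), nor DTX3L with no filter (0.07, adjusted p = 0.111). DDX58, ADAR and MX2 were called in none of the 3 comparisons here, but DDX58 and ADAR were called in both comparisons of shDHX15_MYC with the stricter filter and under total-count scaling, and MX2 against shControl under total-count scaling (log2 0.41, adjusted p = 0.00996).

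Ranked by level per length (mean CPM per kb of merged exons), the order of the 44 genes in shControl began with IFITM1 at 161, ISG15 at 73.6, IFI6 at 67.9, BST2 at 59.1 and IFITM2 at 54.9 CPM per kb. It ended with MX1 at 0.618, IFI27 at 0.49, MX2 at 0.306 and IFI44L at 0.0611 CPM per kb. With added MYC, IFI44L stood at 5.19 CPM per kb, against 0.0456 CPM per kb in shDHX15, and took place 37 of 44 in shDHX15_MYC, against place 44 in shControl.

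The ligands of the pathway had few counts. Of 21 interferon genes looked for, 7 were in the table and none had enough counts to be tested; the other 14 were not analysed here. IFNB1, the interferon made first after RNA sensing, had 0.0422, 0.0414 and 0.236 CPM in shDHX15_MYC and 0.0832, 0.138 and 0.17 CPM in shDHX15, against 0.111, 0.0472 and 0.149 CPM in shControl, 49 counts in all. The groups overlapped, and at this depth no difference was detectable for IFNB1. IFNW1, another type I interferon, had no count in shDHX15_MYC and 0.0832, 0.0692 and 0.106 CPM in shDHX15, against no count in shControl, 13 counts in all. The 3 shDHX15 libraries lay above the other 6, though the floor of 3 counts in a library reaches 0.0708 CPM, and the gene was not tested. The other 5 had 10 counts or fewer each. Of 13 receptors, kinases and their inhibitors, 2 rose and 3 fell with the knockdown, 4 rose and 8 fell with added MYC, and 4 were higher and 7 lower in shDHX15_MYC than in shControl, the last becoming 6 and 4 under total-count scaling. The shares of all genes tested that rose and fell were 22.0% and 23.0% with the knockdown, 42.1% and 42.6% with added MYC and 42.0% and 42.5% against shControl. Under total-count scaling the last were 53.1% and 32%. The receptor chain IFNAR2 averaged 50.1 ± 2.44 CPM in shDHX15_MYC and 96.8 ± 1.67 CPM in shDHX15, against 95.3 ± 1.05 CPM in shControl (log2 -0.95 with added MYC, adjusted p = 2.95e-13). JAK1, the kinase on that chain, averaged 112 ± 1.88 CPM in shDHX15_MYC and 187 ± 3.17 CPM in shDHX15, against 195 ± 2.78 CPM in shControl (log2 -0.73, adjusted p = 2.97e-13). IFNLR1, the receptor of lambda interferons, averaged 6.81 ± 0.44 CPM in shDHX15_MYC and 1.13 ± 0.255 CPM in shDHX15, against 1.42 ± 0.149 CPM in shControl (log2 2.58, adjusted p = 1.05e-10). The inhibitor SOCS1 averaged 55.1 ± 2.49 CPM in shDHX15_MYC and 33.6 ± 15.2 CPM in shDHX15, against 30.5 ± 1.82 CPM in shControl, and its spread in shDHX15 came from replicate 3: the change with the knockdown was 0.14 (adjusted p = 0.592) and turned to -0.27 (adjusted p = 0.0185) without it.

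Of 18 genes of DNA sensing, Toll-like receptors and shared kinases, 4 rose and 7 fell with the knockdown, 7 rose and 6 fell with added MYC, and 5 were higher and 10 lower in shDHX15_MYC than in shControl. Beside 42.1% of all genes, the 7 of 18 that rose with added MYC are near the background, and 42.6% of all genes fell. With the knockdown 22.0% of all genes rose and 23.0% fell. Against shControl, 42.0% of all genes were higher and 42.5% lower in shDHX15_MYC. Under total-count scaling the counts among the 18 genes became 6 and 5, 9 and 5, and 6 and 7. The shares of all genes were then 29.9% and 16.8%, 50.2% and 34.9%, and 53.1% and 32%. TMEM173, which encodes the DNA-sensing adaptor STING, averaged 32.2 ± 0.561 CPM in shDHX15_MYC and 85.1 ± 4.39 CPM in shDHX15, against 79.9 ± 3.48 CPM in shControl (log2 -1.40 with added MYC, adjusted p = 1.57e-14). MYD88, the adaptor of most Toll-like receptors, fell with the knockdown to 67.3 ± 2.11 CPM in shDHX15, against 95.05 ± 1.09 CPM in shControl (log2 -0.50, adjusted p = 1.86e-08). TICAM1, the adaptor of TLR3, and TBK1, the kinase that activates IRF3, rose at both steps: TICAM1 averaged 20.3 ± 1.03 CPM in shDHX15_MYC and 11.9 ± 1.22 CPM in shDHX15, against 9.72 ± 0.682 CPM in shControl, and TBK1 41.04 ± 1.11 CPM in shDHX15_MYC and 30.5 ± 0.746 CPM in shDHX15, against 23.6 ± 1.58 CPM in shControl. Their log2 changes with added MYC were 0.77 (adjusted p = 1.49e-07) and 0.43 (adjusted p = 1.12e-06). With the knockdown they were 0.30 (adjusted p = 0.0107) and 0.37 (adjusted p = 4.67e-05). TICAM1 and TBK1 thus rose with added MYC while MAVS, IRF3 and TMEM173 fell.

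Of 48 other interferon-stimulated genes tested, 9 rose and 13 fell with the knockdown, 22 rose and 25 fell with added MYC, and 19 were higher and 24 lower in shDHX15_MYC than in shControl. Of all genes, 22.0% rose and 23.0% fell with the knockdown, 42.1% and 42.6% with added MYC, and 42.0% and 42.5% against shControl. The first split became 14 and 10 under total-count scaling, against 29.9% and 16.8% of all genes. The medians were -0.05, -0.12 and -0.14, against 0, 0.01 and 0.02 over all genes and 0, -0.10 and -0.09 over the 13185 genes whose log2 CPM averaged 0 or more. TNFSF10, the death ligand TRAIL, averaged 244 ± 2.58 CPM in shDHX15_MYC and 65.8 ± 4.08 CPM in shDHX15, against 68.7 ± 3.07 CPM in shControl (log2 1.89, adjusted p = 9.52e-17). PNPT1, a mitochondrial RNA-degrading enzyme, averaged 72.997 ± 0.797 CPM in shDHX15_MYC and 26.2 ± 1.19 CPM in shDHX15, against 24.7 ± 1.72 CPM in shControl (log2 1.48, adjusted p = 3.32e-14). Downward, TRIM5, which restricts retroviral capsids, averaged 23.7 ± 0.104 CPM in shDHX15_MYC and 73.5 ± 2.4 CPM in shDHX15, against 71.8 ± 1.89 CPM in shControl (log2 -1.63, adjusted p = 6.19e-16), and NLRC5, which activates class I antigen presentation genes, 46.9 ± 0.892 CPM in shDHX15_MYC and 105 ± 1.4 CPM in shDHX15, against 126 ± 1.13 CPM in shControl (log2 -1.17, adjusted p = 2.69e-15). CMPK2, the gene next to RSAD2 and its partner in nucleotide synthesis, averaged 36.5 ± 1.96 CPM in shDHX15_MYC and 17.6 ± 0.999 CPM in shDHX15, against 34.7 ± 0.343 CPM in shControl. It fell with the knockdown (log2 -0.98, adjusted p = 1.42e-09) and rose with added MYC (log2 1.05, adjusted p = 1.48e-11), the same directions as RSAD2.

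The ISRE core was frequent in the promoters of the 44 genes. Of the 44, 34 had a promoter in the RefSeq table, and 21 of these (61.8%) held GAAANNGAAA on either strand, against 1255 of 35116 promoters of that length (3.57%). Overlapping matches were counted separately. Among members that rose with added MYC, 16 of 23 held it (69.6%), against 3 of 7 that fell (42.9%) and 2 of 4 that were not called. The median log2 fold change with added MYC was 0.56 for the 21 members with the core and 0.17 for the 13 without. Among other tested genes, 333 with the core had 41.4% higher and 45.0% lower with added MYC, and 11055 without it had 42.5% higher and 42.4% lower. The E-box CACGTG, the letters bound by MYC and MAX, stood in 6 of the 34 promoters (17.6%), against 7.26% of all, and in 4 of the 23 that rose (17.4%). The GAS letters TTCNNNGAA stood in 8 of 34 (23.5%), against 7.66% of all. Both motifs read the same on either strand. OAS1, XAF1, IRF9, SAMD9L and STAT2 held no ISRE core in this window, which says only that these letters are absent there.

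**Figure D4:**
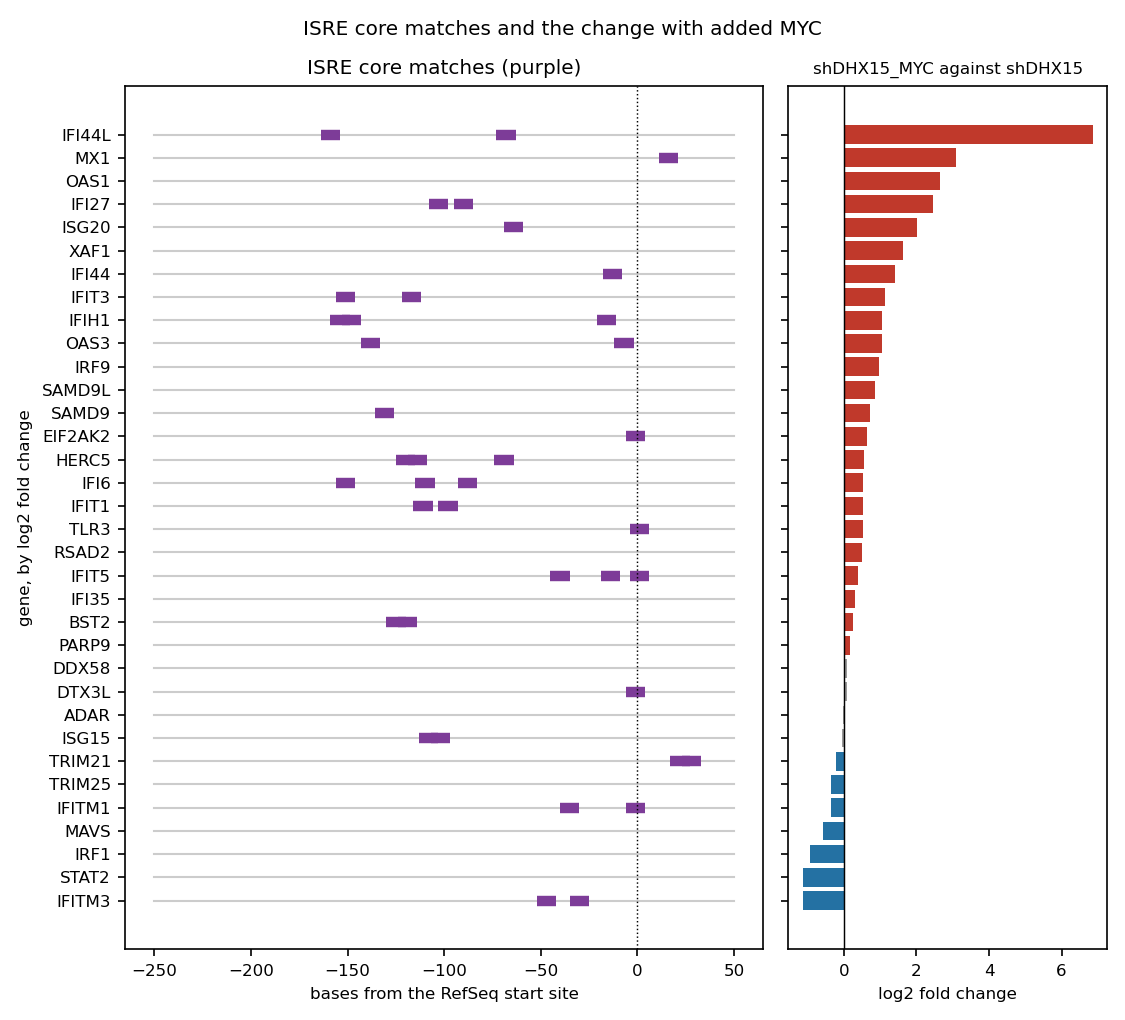
Position of each ISRE core match (purple, 10 bases) relative to the RefSeq start site in the promoters of 34 members (left, in bases), beside the log2 fold change of the same gene in shDHX15_MYC against shDHX15 (right; red higher, blue lower, grey not called). IFI44L, MX1, IFI27 and ISG20 at the top hold the core and OAS1 does not, and at the foot IFITM3 holds 2 matches and STAT2 and IRF1 none.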

How the data were processed

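The authors deposited unscaled read counts per gene as whole numbers, for 17637 genes in 9 libraries of 3 groups. Per the labels' protocols, sequencing was paired-end, 150 bp, on poly(A) libraries. HISAT2 2.2.1, DESeq2 1.32.0, FastQC 0.11.9 and hg38 are listed in the submitters' processing notes. For the counting program, the annotation and the strand setting, the sources used here give nothing. Columns were joined to samples by name and number: those named for a GFP hairpin were taken as shControl, and those named for the other hairpin, with or without MYC, as shDHX15_MYC and shDHX15. No value column was left out.

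Genes were kept by filterByExpr (15309), scaled by TMM and fitted with the quasi-likelihood model of edgeR 4.0.16 in R 4.3.3, with 1 mean per group over all 9 libraries and no covariate. Tests of the 3 contrasts were 2-sided, with Benjamini-Hochberg adjustment over all genes tested. A gene is called at an adjusted p under 0.05, and the SE is the log2 fold change over the square root of the F statistic. Overlap of groups was read from CPM. The steps were run on simulated data in which only a small part of the genes changed. In the deposited counts most genes were called with added MYC, so the simulation could not test the choice of scaling. DESeq2 1.42.0, other scalings and filters, a replicate block, a test against a fold of 1.2, fits on 2 groups only and fits without each library were tried.

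The members, the pathway lists, the marker lists and the tests were chosen with earlier results of these data known. Values in every library are given for the called members with the 8 highest and 8 lowest fold changes in each comparison, for the sensors, MAVS, STAT2, IRF3, IRF7 and IRF9, and for some further members chosen after their values were seen. A single gene was left out of the pathway lists and of their counts. From each pathway list, genes were chosen from the 4 called in each direction with the smallest adjusted p. All 44 members matched GENCODE v29 (GRCh38), which gave exon length, neighbours, overlap and 100-base windows shared with another locus, and 34 matched the RefSeq promoters.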

Additional observations from a re-analysis of the deposited data

How the results depend on the processing

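With the knockdown, the count of members depended on small changes. Against a fold of 1.2 (edgeR's glmTreat), 0 were higher and 5 lower, in place of 8 and 14. The shares of all genes were 5.63% and 6.28%, in place of 22.0% and 23.0%. At an unadjusted p under 0.05 the member counts were 1 and 7, and the share of all genes was not computed. DESeq2, with no such fold, gave 9 and 14, against 19.8% and 21% of all genes. With each library left out in turn, 5 to 9 were higher and 12 to 14 lower in shDHX15 against shControl. The shares of all genes were 18.8% to 24.6% and 19.6% to 24.2%. In shDHX15_MYC against shDHX15 the counts were 28 to 29 and 10 to 11, against 40.3% to 41.9% and 41.1% to 42.7%. In shDHX15_MYC against shControl they were 24 to 25 and 13, against 40% to 40.3% and 40.9% to 41.2%. The 5 came without replicate 3 of shControl, which lost IRF7, ISG20 and SAMD9L among the higher. Added MYC gave 29 higher and 10 lower by DESeq2, 29 and 10 by RLE scaling, 31 and 9 with a stricter filter and 28 and 11 with no filter. The shares of all genes were, in that order, 38.9% and 35.7%, 43.6% and 41.1%, 43.4% and 43.9%, and 37.8% and 38%. Libraries of the same number did not deviate together (r from -0.0239 to 0.0412 across genes). With the replicate block the counts were 8 and 14, 28 and 11, and 24 and 14. The shares of all genes were 21.5% and 22.5%, 41.8% and 42.5%, and 41.7% and 42.2%. With that block IFI35 was called lower against shControl (-0.16, adjusted p = 0.0385) and DTX3L was not called (adjusted p = 0.0537). Among single-member values over all alternatives, 1739 kept their side of the threshold, 35 passed it anew, 67 no longer passed and 7 reversed. A change of sign was counted as reversed only where the main fit or the alternative called the gene. Values called in neither fit that changed sign are thus among the 1739. Under total-count scaling the log2 fold change with added MYC reversed to 0.17 for ADAR, 0.07 for IFITM2, 0.14 for ISG15 and 0.06 for PARP14, and against shControl to 0.08 for ISG15, 0 for RSAD2, 0.23 for PTPN6 and 0.09 for IFNAR1. With the stricter filter it reversed to 0.10 for ADAR and 0 for IFITM2. With each library left out, SOCS1 ran from -0.27, without replicate 3 of shDHX15, to 0.37 with the knockdown. Total-count scaling differs from TMM in its factors alone. The stricter filter (mean log2 CPM of at least 1) leaves fewer genes, on which TMM was computed anew, and moved their median by 0.14 with added MYC and by 0.13 against shControl. In the latter it gave 28 and 11, against 43.4% and 43.9% of the genes it kept. For SOCS1 the cause was not tested. Interferon ligands have 49 counts or fewer each, where depth limits any comparison.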
